A study of Mus musculus with 9 samples.

Results

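The miRNAs described here derive from 4 precursor loci that are expressed mainly in leukocytes: miR-142, miR-150, miR-155 and miR-223. Rows of the deposited table whose names start with miR-142a-, miR-150-, miR-155- or miR-223- were taken as members, which gave 5 of the 358 miRNAs: miR-142a-5p, miR-142a-3p, miR-223-3p, miR-150-5p and miR-155-5p. The rule used names only and no measured value, but it was chosen with earlier results of these data known. The material was epididymosomes, the small extracellular vesicles of the epididymal lumen, from inbred Swiss male mice aged 8 weeks, and the labels give no treatment. They were recovered from the fluid of the caput, corpus and cauda, the proximal, middle and distal segments of the duct, with 3 libraries per segment, and the study asked how their miRNA cargo differs between segments. Each library held RNA pooled from several animals, so no value belongs to 1 animal. The blood vessels of the animals had been perfused before dissection to limit blood in the fluid, which was released by cutting each segment with a razor blade. The paper reports that immunoblots of the preparations detected neither haemoglobin nor a protein marker of the cytoplasmic droplets of sperm. The libraries show which miRNAs the vesicle preparation held, and the cell that released a vesicle was not measured.

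MicroRNAs are cut from a hairpin precursor into a 5p and a 3p arm, and the arm that is loaded into Argonaute represses transcripts that pair with its seed, bases 2 to 8. miR-142 is expressed throughout the haematopoietic lineage and is widely used to mark cells of that lineage. miR-223 is a myeloid miRNA of neutrophils and monocytes, miR-150 is abundant in mature lymphocytes, and miR-155 is processed from the BIC transcript and is induced in activated lymphocytes and macrophages. The epididymal duct is surrounded by resident mononuclear phagocytes and holds lymphocytes as well, mostly within and beneath the epithelium.

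The mature sequences of the members, which show that the 2 arms of miR-142a and the other members carry unrelated seeds, are given 5′ to 3′ as in RefSeq (GRCm38.p6), with the seed in capitals.
miR-142a-5p: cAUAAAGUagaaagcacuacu
miR-142a-3p: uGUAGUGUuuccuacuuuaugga
miR-223-3p: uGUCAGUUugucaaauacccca
miR-155-5p: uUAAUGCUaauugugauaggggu
miR-150-5p is given by name. Mature sequences were matched for 299 of the 358 miRNAs of the table, and among these no other miRNA shared a seed with any of the 4 members printed. The 4 members had a GC content of 33.3% to 40.9%, compared with a median of 45.5% over the 299. GGAG and CCCU, short motifs discussed in work on the loading of miRNAs into vesicles, were searched on the given strand between the middle and the 3′ end of each miRNA. GGAG was present in 2.34% and CCCU in 2.68% of the 299, and neither was found there in the 4 members.

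Both miR-142a arms come from 1 hairpin, printed here with the mature arms in capitals because the ratio of the arms is one of the measurements below. It lies at chr11:87756864-87756927 on the plus strand (GRCm38.p6).
Mir142 hairpin: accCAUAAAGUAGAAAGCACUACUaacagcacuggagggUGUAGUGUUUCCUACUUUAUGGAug
The opposite strand of the same place carries a second annotated miRNA, miR-142b, which resembles miR-142a-5p. Its sequence is given with the bases that differ in capitals, 2 mismatches over 18 aligned bases.
miR-142b: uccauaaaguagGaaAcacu
The table had 0 rows for miR-142b, so that no reads are listed under that name. In the GENCODE annotation of GRCm38, Mir142 lies in an intron of the long non-coding RNA Mir142hg. Mir155 (chr16:84714140-84714204, plus strand) lies in an exon of Mir155hg. Mir223 (chrX:96242817-96242926, plus strand) lies in an exon of the non-coding transcript F630028O10Rik, and its nearest protein-coding gene was Vsig4, a gene of macrophages. Mir150 (chr7:45121757-45121821, plus strand) overlapped no annotated gene.

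Levels are given in CPM, that is, as reads per 1000000 miRNA reads of a library. Reads on miRNAs numbered 8274421 to 11306605 per caput library, 1548581 to 6190324 per corpus library and 2001086 to 5896748 per cauda library, so that 10 CPM corresponded to 113 reads in the deepest and 15.5 reads in the shallowest library. miR-10a-5p and miR-10b-5p together took 50.5% to 71.3% of the caput reads and 33.2% to 34.5% of the cauda reads, and miR-143-3p rose from 4.98% to 8.81% in the caput to 28.7% to 35.2% in the cauda. The median change over all miRNAs was not 0: on the log2 scale it was 0.47 from caput to corpus, 0.18 from corpus to cauda and 0.81 from caput to cauda. With trimmed-mean (TMM) scaling these medians were -0.09, 0.08 and 0.13, and changes of the members are also given relative to the median. From CPM, 61 miRNAs rose and 9 fell from caput to corpus, 48 rose and 17 fell from corpus to cauda, and 136 rose and 36 fell from caput to cauda. With TMM scaling 42 of 91, 56 of 90 and 88 of 159 called miRNAs were higher in the more distal segment. In such material a lower number of vesicles from a cell type and fewer copies per vesicle cannot be told apart.

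All 5 members were present in all 9 libraries, and their levels fell into 3 tiers. miR-142a-5p was the highest member in 9 of 9 libraries, and stood between rank 49 and rank 118 of the 358 miRNAs. miR-223-3p, miR-150-5p and miR-142a-3p followed at levels that crossed from library to library: miR-223-3p was second of the 5 members in 5 libraries, miR-150-5p in 3 and miR-142a-3p in 1. miR-155-5p was the lowest member in all 9 libraries. The arms of miR-142a together made up 51.8% to 88.5% of the summed level of the members.

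miR-142a-5p was present at 170 CPM, 178 CPM and 402 CPM in the caput libraries, 367 CPM, 585 CPM and 944 CPM in those of the corpus and 159 CPM, 293 CPM and 1166 CPM in those of the cauda. The mean level was 250.0 ± 132 CPM, 632 ± 292 CPM and 539 ± 547 CPM respectively (SD, n = 3). The third cauda library was thus the highest of all 9 and the first cauda library the lowest of all 9, and the segments overlapped in each comparison. The lowest cauda library held 318 reads of miR-142a-5p and its 95% counting interval (Clopper-Pearson) was 142 to 177 CPM. The highest cauda library was 7.34 times the lowest, a wider spread than that of 97.5% of the 322 miRNAs at a mean of at least 10 CPM in the cauda, for which the median ratio was 1.64.

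miR-142a-3p, the less abundant arm, was lowest in the caput. It was present at 20.4 CPM, 7.37 CPM and 36.7 CPM in the caput libraries, 42.0 CPM, 37.2 CPM and 72.3 CPM in those of the corpus and 44.5 CPM, 77.8 CPM and 160 CPM in those of the cauda. All corpus and all cauda libraries stood above all caput libraries, whereas corpus and cauda overlapped. The means were 21.5 ± 14.7 CPM, 50.5 ± 19.0 CPM and 94.2 ± 59.7 CPM (SD, n = 3), and the lowest library, the second of the caput, rested on 61 reads.

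miR-223-3p was present at 27.8 CPM, 20.1 CPM and 37.0 CPM in the caput libraries, 53.0 CPM, 76.8 CPM and 73.0 CPM in those of the corpus and 111 CPM, 54.5 CPM and 163 CPM in those of the cauda. Its caput libraries were also separate from all others, and its second cauda library fell within the corpus range. The means were 28.3 ± 8.49 CPM, 67.6 ± 12.8 CPM and 110 ± 54.4 CPM (SD, n = 3).

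miR-150-5p showed the narrowest range of the 5 members, with 4.09-fold between its lowest and highest library compared with 7.34-fold to 21.8-fold for the others. It was present at 40.8 CPM, 24.7 CPM and 51.0 CPM in the caput libraries, 49.9 CPM, 50.1 CPM and 54.9 CPM in those of the corpus and 64.5 CPM, 27.0 CPM and 101 CPM in those of the cauda. The 3 corpus libraries lay within 1.1-fold of each other, whereas the highest cauda library was 3.73 times the lowest, and all segments overlapped. The means were 38.8 ± 13.3 CPM, 51.6 ± 2.81 CPM and 64.1 ± 36.9 CPM (SD, n = 3).

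miR-155-5p was scarce outside the cauda. It was present at 3.10 CPM, 0.846 CPM and 2.96 CPM in the caput libraries, 3.39 CPM, 2.35 CPM and 4.52 CPM in those of the corpus and 13.5 CPM, 15.1 CPM and 10.3 CPM in those of the cauda. All cauda libraries stood above all others, and caput and corpus overlapped. These levels rested on few reads, 7 to 35 per library in caput, 6 to 21 in corpus and 27 to 61 in cauda. The counting intervals were correspondingly wide, with 0.340 to 1.74 CPM in the lowest library and 10.4 to 21.2 CPM in the highest. Intervals cover counting error only.

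**Figure D1:**
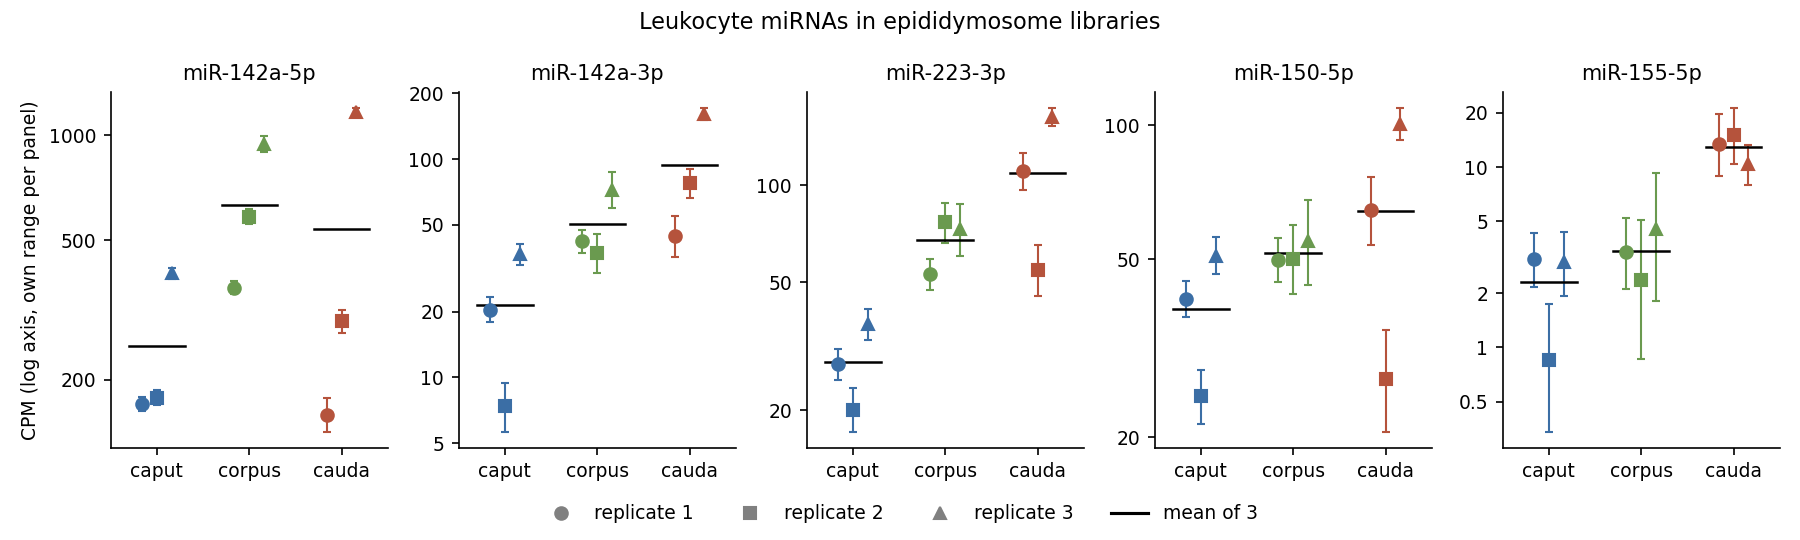
CPM of each member (log axis, with its own range in each panel) in the caput, corpus and cauda libraries; symbols mark the replicate number, bars the 95% counting interval and black lines the mean of 3. miR-142a-3p and miR-223-3p are lower in all caput libraries than elsewhere, miR-155-5p is higher in all cauda libraries, and miR-142a-5p spreads from 159 to 1166 CPM within the cauda.

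The library numbered 3 held the highest value for 4 of the 5 members in each segment. Over all 358 miRNAs, replicate 3 was the highest library for 80.7% in caput, 34.6% in corpus and 45.3% in cauda. The summed level of the members was 530 CPM, 1149 CPM and 1601 CPM in the third libraries of caput, corpus and cauda, compared with 231 to 752 CPM in the other libraries. The labels give nothing that sets these libraries apart, and whether a number marks a shared preparation is not stated.

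From caput to corpus 0 of the 4 members tested passed the test. For 3 of them the fitted difference was more than 2-fold in CPM but not with TMM scaling, where it was 0.77 on the log2 scale for miR-142a-5p, 0.85 for miR-142a-3p and 0.69 for miR-223-3p. The test was limma on log2(CPM + 1) with Benjamini-Hochberg adjustment over all 321 miRNAs tested, and called a miRNA at an adjusted p under 0.05 and a fold of at least 2. miR-142a-5p differed by 1.35 on the log2 scale (SE 0.60, adjusted p = 0.116), miR-142a-3p by 1.39 (SE 0.56, adjusted p = 0.0861) and miR-223-3p by 1.25 (SE 0.46, adjusted p = 0.0575). miR-150-5p differed by 0.46 (SE 0.48, adjusted p = 0.509), close to the median of 0.47 over all miRNAs, and the sign of its difference turned with TMM scaling (-0.10). miR-155-5p, at a mean of under 10 CPM in both segments, was not among the miRNAs tested. In the fit without a filter it differed by 0.48 (SE 0.49, adjusted p = 0.515, 95% interval -0.55 to 1.51). In all, 0 of 4 tested members were called higher by limma (0 by limma-voom, and 3 at an unadjusted p under 0.05), against 19.0% of all miRNAs tested, while 2 of the 4 (miR-142a-3p and miR-223-3p) were higher in all 3 corpus libraries than in all 3 caput libraries, against 29.3% of all. Leaving out caput replicate 3 brought miR-142a-3p (adjusted p = 0.0269, limma) and miR-223-3p (0.0313) under the threshold, and leaving out cauda replicate 3, which enters this comparison through the shared estimate of spread, did so for miR-142a-5p (0.0491) and miR-223-3p (0.0449). In the other direction, miR-142a-3p differed by 0.80 without caput replicate 2 (adjusted p = 0.323, limma) and miR-142a-5p by 1.01 without corpus replicate 3 (adjusted p = 0.328). With the replicate number added to the fit as a block, miR-142a-5p, miR-142a-3p and miR-223-3p were called (limma adjusted p = 0.0239, 0.0281 and 0.0394). In that fit 26.5% of all miRNAs tested were called, in either direction.

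From corpus to cauda miR-155-5p was the only member called. It was 3.19-fold higher in the cauda on the log2(CPM + 1) scale (log2 change 1.68, SE 0.47, limma adjusted p = 0.0226), 1.5 above the median of all miRNAs. It entered the test through its cauda level alone, so that a difference was built into its selection, and in the fit without a filter its adjusted p was 0.0266. The call was lost in limma-voom on the recovered reads (adjusted p = 0.0519) and on leaving out corpus replicate 1, corpus replicate 2, cauda replicate 1 or cauda replicate 2 (adjusted p = 0.0661, 0.110, 0.0688 and 0.0711 respectively). It was also lost with a pseudocount of 10 CPM, where the change was 0.77. For the remaining members the differences were -0.63 for miR-142a-5p (95% interval -1.93 to 0.67), 0.75 for miR-142a-3p (-0.47 to 1.98), 0.57 for miR-223-3p (-0.41 to 1.55) and 0.12 for miR-150-5p (-0.92 to 1.16), with adjusted p between 0.40 and 0.876. These differences moved with single cauda libraries: without cauda replicate 3 they were -1.44 for miR-142a-5p, 0.28 for miR-142a-3p, 0.22 for miR-223-3p and -0.30 for miR-150-5p, and without cauda replicate 1 they were -0.0053 for miR-142a-5p and 1.19 for miR-142a-3p. With median-of-ratios scaling that of miR-150-5p was -0.077. The call of 1 of 5 members stood against 14.0% of all 342 miRNAs tested. Likewise 1 of 5, miR-155-5p, was higher in all 3 cauda libraries, against 30.1% of all.

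Between the ends of the duct, 3 members rose. From caput to cauda miR-142a-3p was 4.41-fold higher (log2 change 2.14, SE 0.57, adjusted p = 0.00556), miR-223-3p 3.54-fold higher (1.82, SE 0.47, adjusted p = 0.00410) and miR-155-5p 4.46-fold higher (2.16, SE 0.49, adjusted p = 0.00170). Relative to the median of all miRNAs their changes were 1.33, 1.01 and 1.35. All 3 remained called with TMM scaling, at log2 changes of 1.5, 1.16 and 1.67, and on leaving out any 1 library. With a pseudocount of 10 CPM the change of the scarce miR-155-5p was 0.90, under a fold of 2. By contrast, miR-142a-5p differed by 0.72 (95% interval -0.54 to 1.98, adjusted p = 0.330) and miR-150-5p by 0.58 (-0.45 to 1.62, adjusted p = 0.337), both below the median of 0.81. Neither sign was stable, since with median-of-ratios scaling the differences were -0.0017 for miR-142a-5p and -0.12 for miR-150-5p, and without cauda replicate 3 that of miR-142a-5p was -0.090. The calls made up 3 of 5 members against 39.0% of all 349 miRNAs tested, and the same 3 were higher in all 3 cauda libraries than in all 3 caput libraries, against 42.4% of all. The median log2 change over the 5 members was 1.82 compared with 0.81 over all miRNAs. Here too miR-155-5p was tested through its cauda level alone.

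**Figure D2:**
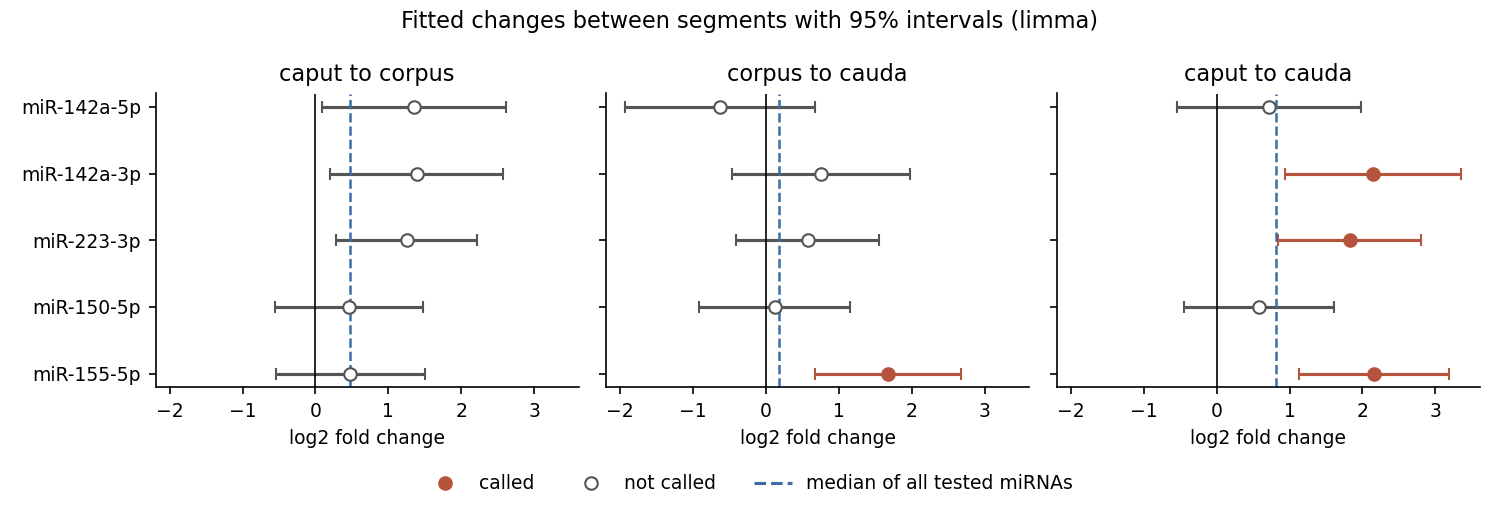
Log2 fold changes of the 5 members in the 3 comparisons (x axis, limma on log2(CPM + 1)) with 95% intervals; filled points passed the test and the dashed line marks the median of all miRNAs tested. miR-142a-3p, miR-223-3p and miR-155-5p are called from caput to cauda, miR-155-5p alone from corpus to cauda, and none from caput to corpus, where miR-155-5p is shown from the fit without a filter.

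The excess of the 5p over the 3p arm of miR-142a was smallest in the cauda libraries. Reads of the 5p arm exceeded those of the 3p arm by 8.32-fold, 24.1-fold and 11-fold in the caput libraries, by 8.73-fold, 15.7-fold and 13.1-fold in the corpus libraries, and by 3.57-fold, 3.77-fold and 7.27-fold in the cauda libraries. The 5p arm was therefore the more abundant arm in all 9 libraries, and all cauda ratios lay below all caput and corpus ratios. How many other precursors had cauda ratios separated in this way was not counted. Since both arms are read in the same library, this ratio does not depend on how the library is scaled.

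In limma over the 64 precursors whose arms each averaged 10 CPM or more, the 5p to 3p ratio of miR-142a was 2.75-fold lower in cauda than in caput (log2 difference -1.46, SE 0.45), with an adjusted p of 0.0499, just under the threshold of 0.05. It was called beside 4 other precursors with a lower ratio, in all 7.81% of those tested, and 3 of the 64 had a larger fall. Another 5 precursors were called with a higher ratio in cauda. From corpus to cauda the difference was -1.39 (SE 0.45, adjusted p = 0.126), where 3.12% of precursors were called lower, and from caput to corpus it was -0.07 (SE 0.45, adjusted p = 0.945), where 1.56% were. The call did not hold on leaving out any library other than cauda replicate 3: without each of the other 8 the adjusted p lay between 0.0538 and 0.141, the highest without caput replicate 2, in which the 3p arm had 61 reads. An exact permutation test over the 280 ways to divide 9 libraries into 3 equal groups gave p = 0.0571 for a difference between the segments (0.205 after adjustment over the 5 ratios so tested), with 0.00357 as the smallest p this design allows.

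**Figure D3:**
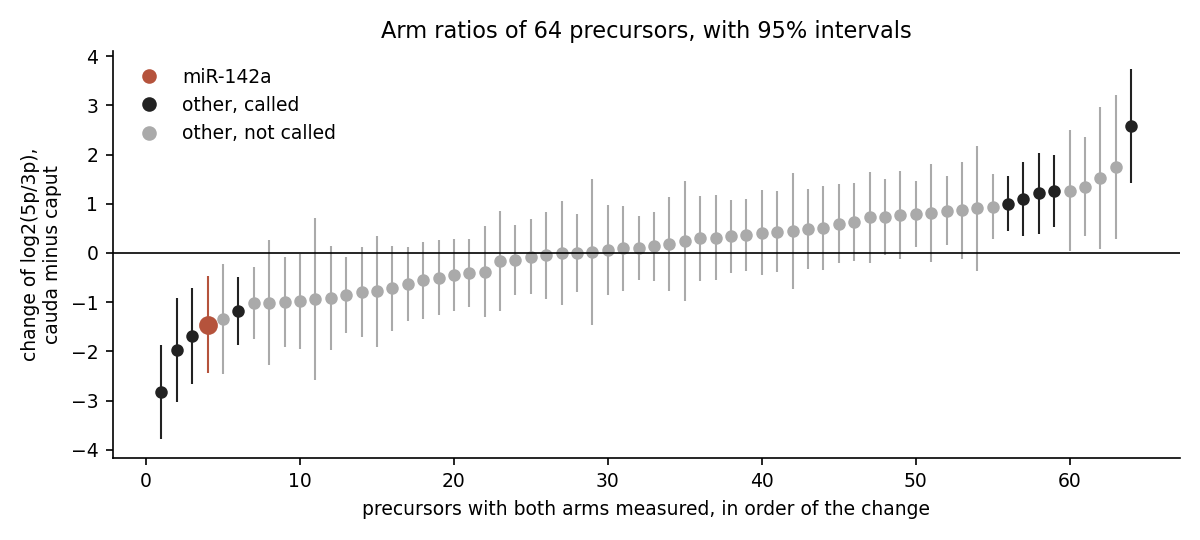
Change in log2(5p/3p) from caput to cauda (y axis) for 64 precursors in order of the change (x axis), with 95% intervals from limma. miR-142a, in red, has a fall of -1.46 that 3 precursors exceed, and dark points are the other precursors called.

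Levels of members from different loci were also set against each other within each library. miR-142a-5p exceeded miR-223-3p by 6.12-fold, 8.86-fold and 10.9-fold in caput, by 6.92-fold, 7.62-fold and 12.9-fold in corpus and by 1.43-fold, 5.39-fold and 7.14-fold in cauda. The first cauda library, in which miR-142a-5p was lowest and miR-223-3p at 111 CPM, stood apart from the rest. The ratio of miR-223-3p to miR-142a-5p was higher in cauda than in caput by 1.12 on the log2 scale, and the segments were not separated by the exact permutation test (p = 0.139, adjusted p = 0.232). On leaving out 1 library this difference ranged from 0.42 without cauda replicate 1 (p = 0.468, exact permutation test, not adjusted) to 1.58 without cauda replicate 3 (p = 0.0357, likewise).

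miR-142a-3p and miR-223-3p, the pair that rose from caput to cauda with separate caput libraries, were closer to each other in level. Their ratio (miR-142a-3p over miR-223-3p) was 0.736, 0.367 and 0.99 in caput, 0.793, 0.485 and 0.991 in corpus and 0.401, 1.43 and 0.982 in cauda. The values overlapped between all segments (exact permutation p = 0.782 for their ratio, adjusted p = 0.782). For miR-155-5p against miR-142a-5p the mean log2 ratio was -6.49 in caput, -7.27 in corpus and -4.83 in cauda (exact permutation p = 0.0821, adjusted p = 0.205), and for miR-150-5p against miR-142a-5p it was -2.61, -3.50 and -2.75 (p = 0.461, adjusted p = 0.576, exact permutation).

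**Figure D4:**
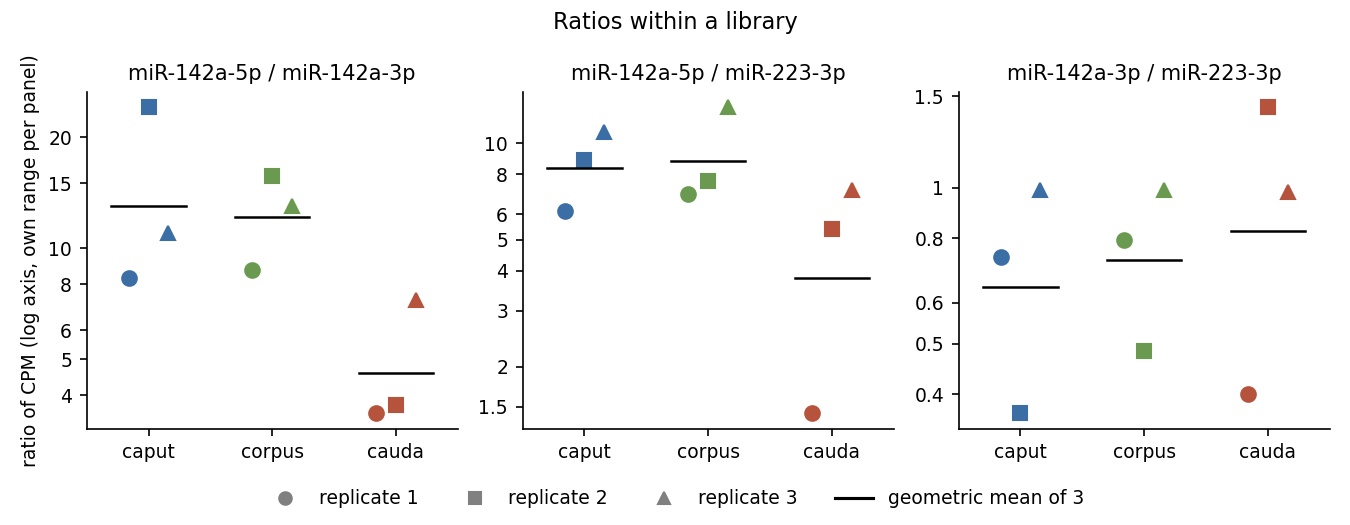
Ratios of CPM within each library (log axis, with its own range in each panel) by segment; symbols mark the replicate number and black lines the geometric mean of 3. The miR-142a arm ratio is lower in all cauda libraries (3.57 to 7.27) than in all others, whereas the ratios to miR-223-3p overlap between segments.

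Over the 9 libraries the log2 levels of the members were most alike for miR-142a-3p and miR-223-3p (Pearson r = 0.85) and least for miR-142a-5p and miR-155-5p (r = 0.13), and the arms of miR-142a had r = 0.71. These correlations describe 9 points that share libraries, segments and depth. Among 305 miRNAs at a mean of at least 10 CPM, the most similar outside the members were miR-434-5p (r = 0.92), miR-300-3p (0.84) and miR-186-5p (0.84) for miR-142a-5p, and miR-136-5p (0.97), miR-199a-3p (0.97) and miR-199b-3p (0.96) for miR-142a-3p. For miR-223-3p they were miR-465c-3p, miR-465a-3p and miR-465b-3p (0.93 each), which are near-identical in sequence and may share reads. Their means over the 9 libraries were 22.9 CPM, 23.0 CPM and 23.0 CPM, so they are not 3 separate neighbours. The means of miR-199a-3p and miR-199b-3p were likewise close, at 3059 CPM and 3037 CPM. For miR-150-5p they were miR-200a-5p (0.86), miR-140-3p (0.83) and miR-434-5p (0.76), and for miR-155-5p miR-365-3p, miR-19a-3p and miR-145a-3p (0.97 each).

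Other miRNAs linked to immune cells did not share 1 course. This list included miR-146a and miR-146b, which restrain NF-κB signalling, miR-342 of lymphoid and myeloid cells, miR-511 of macrophages, miR-181 of lymphocyte development, miR-21 and the miR-17 to miR-92 cluster, and 16 of its 21 names were in the table. Many are also expressed by epithelial and other cells. From caput to cauda 5 of the 16 rose and 1 fell, with 39.0% of all miRNAs called higher, and the median log2 change was 0.37 compared with 0.81 over all miRNAs. From caput to corpus 3 rose and 2 fell, with 19.0% of all called higher (median 0.47, as over all miRNAs). From corpus to cauda 3 rose and 2 fell, with 14.0% of all called higher (median -0.01 compared with 0.18).

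The 4 most abundant of the list were miR-21a-5p, miR-181a-5p, miR-146b-5p and miR-19b-3p. miR-21a-5p averaged 12596 CPM in caput, 13448 CPM in corpus and 20384 CPM in cauda, and miR-181a-5p 6010 CPM, 5803 CPM and 5580 CPM, and neither was called in any comparison. From caput to cauda miR-21a-5p had an adjusted p of 0.0361 (limma) with a log2 difference of 0.77, under a fold of 2. miR-146b-5p took the opposite course to the members that rose: it averaged 4426 CPM in caput, 771 CPM in corpus and 293 CPM in cauda, a fall by 3.79 on the log2 scale from caput to cauda (SE 0.40, limma adjusted p = 1.15e-06). miR-19b-3p, of the miR-17 to miR-92 cluster, rose by 1.8 from caput to cauda (SE 0.49, adjusted p = 0.00628).

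The remaining calls of this list from caput to cauda, named because they passed the test, were the rises of miR-18a-5p (log2 change 3.39), miR-19a-3p (2.63), miR-342-3p (1.96) and miR-511-3p (1.69). miR-511-3p, from the gene of the macrophage mannose receptor, was present at 4.33 CPM, 1.93 CPM and 9.23 CPM in the caput libraries, 17.4 CPM, 12.1 CPM and 20.7 CPM in those of the corpus and 9.49 CPM, 17.4 CPM and 27.0 CPM in those of the cauda. It was thus higher in all corpus libraries than in all caput libraries (log2 change 1.68, SE 0.54, limma adjusted p = 0.0326), as were 29.3% of all miRNAs tested. Its caput mean was under 10 CPM, so that it was tested against the caput only through the segment in which it was higher. miR-342-3p was present at 29.9 CPM, 19.2 CPM and 27.9 CPM in the caput libraries, 52.3 CPM, 21.5 CPM and 53.0 CPM in those of the corpus and 93.9 CPM, 92.0 CPM and 120 CPM in those of the cauda. Its cauda libraries stood above all others, as those of miR-155-5p did (corpus to cauda log2 change 1.35, SE 0.44, limma adjusted p = 0.0415). Of all miRNAs tested, 30.1% had all cauda libraries above all corpus libraries, and 42.4% had them above all caput libraries.

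miRNAs of other cell types that such a preparation could hold moved over the same segments. Those of red blood cells were in the table with 5 of 7 names. Their summed level was 122 to 468 CPM in caput, 234 to 659 CPM in corpus and 1606 to 2225 CPM in cauda. miR-486a-5p and miR-486b-5p share their reads and were counted once in this sum. Most of the cauda sum was miR-486a-5p, which averaged 303 CPM in corpus and 1749 CPM in cauda. From caput to cauda all 5 names were called higher (39.0% of all miRNAs), 3 of 5 from corpus to cauda (14.0% of all) and 1 of 3 tested from caput to corpus (19.0% of all), with miR-486a-5p and miR-486b-5p as separate names in these counts. miR-144-3p and miR-486a-3p entered both cauda comparisons through their cauda level alone. The 3 called from corpus to cauda were all miR-486 names. miR-451a, the defining miRNA of red blood cells, was above 0 in all libraries, at 19.5 CPM, 21.5 CPM and 76.1 CPM in caput, 72.2 CPM, 157 CPM and 363 CPM in corpus and 52.0 CPM, 380 CPM and 157 CPM in cauda. Its mean was 197 CPM in corpus and 196 CPM in cauda, and it was not called between them (log2 change -0.13, limma adjusted p = 0.906). The third libraries of caput and corpus were the highest of their segment for miR-451a, as they were for miR-142a-5p, whereas in the cauda the second library was.

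The summed level of the smooth muscle list (miR-143 and miR-145) was 50115 to 88995 CPM in caput, 88423 to 121412 CPM in corpus and 291676 to 354786 CPM in cauda, and all 4 of its miRNAs rose from caput to cauda, where 39.0% of all miRNAs did. The striated muscle list, with 5 of 9 names in the table, had 55.5 to 197 CPM, 121 to 167 CPM and 1412 to 4166 CPM, and all 5 were called higher from caput to cauda, although 2 of them were at 0 in some library. Of these, 4 (miR-1a-3p, miR-133a-5p, miR-133b-3p and miR-208b-3p) were tested through their cauda level alone. The endothelial miR-126a arms summed to 837 to 2671 CPM, 1721 to 3109 CPM and 2684 to 3457 CPM, and neither was called in any comparison. The epithelial list (miR-200, miR-141, miR-203 and miR-205), with 10 of 11 names in the table, summed to 22174 to 34116 CPM, 74447 to 85898 CPM and 46334 to 62893 CPM. Of its 10 miRNAs 2 rose from caput to corpus (19.0% of all miRNAs), 0 were called by limma from corpus to cauda (1 at an unadjusted p under 0.05, 14.0% of all called higher) and 1 rose from caput to cauda (39.0% of all). The 1 under 0.05 was miR-141-3p, the most abundant of the list. It was lower in cauda than in corpus, with a log2 difference of -0.72 (limma adjusted p = 0.0345), under a fold of 2. The leukocyte members summed to 231 to 530 CPM, 515 to 1149 CPM and 392 to 1601 CPM, less than the epithelial list in every library. The part of blood, muscle or any other cell type in the changes of the members was not tested.

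**Figure D5:**
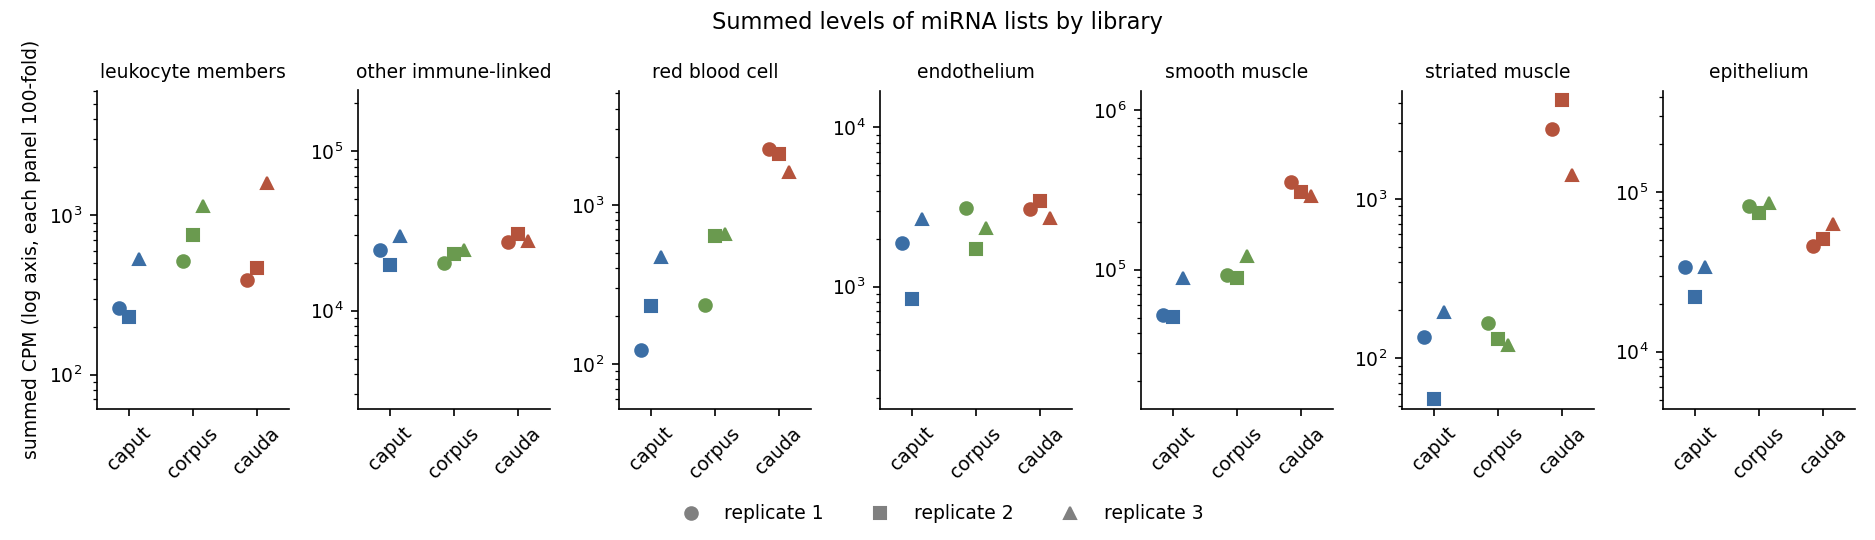
Summed CPM of each miRNA list (log axis, 100-fold in each panel) by segment, with symbols for the replicate number. The sums of the red blood cell, smooth muscle and striated muscle lists are highest in all 3 cauda libraries, whereas the leukocyte members overlap between segments and are highest in the third library of each.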

How the data were processed

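Small RNA of epididymosomes from 3 segments was sequenced in 3 libraries each. The authors screened reads for contaminants, counted them on known mature miRNAs with the miRDeep2 quantifier and normalised by library size, so the deposited values are CPM. The submitters' processing notes name CASAVA 1.8.2, Bowtie 1.1.1 and limma, and the genome build and miRBase release are not given in the sources used here. Segments came from the labels, and 0 columns of the table were left unused. The values of each library were whole multiples of what 1 read is worth (100% within 0.01), which gave its read total.

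miRNAs averaging 10 CPM or more in either segment compared were fitted with limma 3.58 in R 4.3 (trend, log2(CPM + 1), 9 libraries, segment as the only factor). Folds on this scale understate changes of scarce miRNAs. Fits without the 10 CPM filter used all 358 miRNAs, which match in number those the paper reports as detected at its own threshold of 10 CPM. Such fits may therefore not be free of selection by level. Arm ratios used a pseudocount of 0.5 CPM. Scripts were tested on simulated data. Python 3.11, pandas 2.3, scipy 1.17 and matplotlib 3.10 were used for the remaining steps.

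Every row found by the name rule is named. Of the other immune-linked list the 4 highest are named, and its called miRNAs were named after their values were seen. The further lists are given by counts and sums, with some miRNAs named. For each member the 3 most correlated miRNAs are named. The members and lists were chosen with earlier results of these data known. Replicate numbers are shared between segments, but the labels do not say that they pair libraries. Deviations of same-numbered libraries correlated between -0.211 and 0.440, over 0.1 in 6 of 9 pairs, and 8 of 9 libraries were nearest their own number. Whether the numbers mark pairs was not settled, and the main fits left the number out. Libraries are pools of animals, and p-values measure the spread between these pools.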

Additional observations from a re-analysis of the deposited data

How the results depend on the processing

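Over 344 recomputed values, 302 were counted as unchanged in direction and side of the threshold. A number of called members that went from 3 to 2 was included among these. Leaving out a library outside a comparison cannot alter its log2 changes, so that part of the values could not change direction. From caput to cauda 3 members were called under all alternatives except a pseudocount of 10 CPM and a filter of 50 CPM, where miR-155-5p was not (2 members). From corpus to cauda 0 were called with limma-voom, a pseudocount of 10 CPM or the 50 CPM filter, which leaves miR-155-5p untested, and 0 to 1 on leaving out 1 library. From caput to corpus 0 to 2 were called on leaving out 1 library (2 without caput replicate 3 or without cauda replicate 3), and 3 with the replicate block (miR-142a-5p, miR-142a-3p and miR-223-3p). The block changed no other call of a member or of the arm ratio. The labels do not say that the numbers pair libraries, although 8 of 9 libraries correlated best with one of their own number.

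miR-150-5p turned sign from caput to corpus with TMM (-0.10) and median-of-ratios scaling (-0.047), from corpus to cauda with median-of-ratios scaling (-0.077) and on leaving out 1 library (-0.30 to 0.63), and from caput to cauda with TMM (-0.079) and median-of-ratios scaling (-0.12). miR-142a-5p did so from caput to cauda with median-of-ratios scaling (-0.0017) and without cauda replicate 3 (range on leaving out 1 library, -0.090 to 1.34). The arm ratio of miR-142a was no longer called with arms of at least 2 CPM (-1.46, adjusted p = 0.0655, limma), and lay between -1.79 and -1.03 on leaving out 1 library. The ratio of miR-223-3p to miR-142a-5p lay between 0.42 and 1.58. The causes were not tested. The quasi-likelihood count test that had been planned was not run, since the recovered reads could not be checked independently. The same limit applies to limma-voom and to the counting intervals, which used these reads. Depth limits miR-155-5p most, with 6 to 35 reads per library outside the cauda.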
